A study of Mus musculus with 24 samples.

Results

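The small leucine-rich proteoglycans are secreted proteins of the cartilage, tendon and bone matrix, and 10 genes of this family and its close relatives were followed here through all 6 groups of the study. The members were taken by symbol from the 52178 genes of the count table and are Dcn (decorin), Bgn (biglycan), Aspn (asporin), Fmod (fibromodulin), Lum (lumican), Prelp, Epyc (epiphycan), Ogn (osteoglycin), Chad (chondroadherin) and Chadl (chondroadherin-like). All 10 were detected and passed the filter on low counts, which was set over the 6 groups. The family was split by tissue: among the controls, Chad, Prelp, Chadl, Dcn, Epyc, Fmod and Bgn stood higher in hip caps, and Aspn, Ogn and Lum in metatarsals. Of the pressures, 50 MPa in hip caps alone gave called differences with edgeR, a rise of Aspn and a fall of Chadl, and both rested on few libraries. DESeq2 called Lum and Ogn in hip caps at 5 MPa and added Ogn at 50 MPa. At 5 MPa the study's own DESeq2 analysis called far more genes in hip caps than the 4 of edgeR here.

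Each protein of the family carries a horseshoe of leucine-rich repeats that binds collagen fibrils, and most carry sulfated sugar chains that hold water between the fibrils. Decorin and biglycan carry chondroitin or dermatan sulfate, asporin belongs to the same class but lacks such a chain, and fibromodulin, lumican and PRELP form another class, with keratan sulfate on the first pair. Epiphycan and osteoglycin belong together in a class of their own, and chondroadherin, which binds collagen and integrins and is known as a protein of cartilage, stands with few relatives. Several members also bind growth factors of the TGF-β family and limit the width of collagen fibrils.

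Hip caps are the cartilage caps of the femoral head, a model of articular cartilage. They came from male C57/BL6 mice aged 4 weeks, with the 2 caps of each mouse pooled. The substrain was C57/BL6J in both tissues. Metatarsals are foot bones of embryonic day 15 (E15) embryos, a model of growth plate cartilage, with 6 bones pooled per sample. Explants were cultured for 24 hours, kept at 0 MPa (control) or exposed to 5 MPa or 50 MPa of hydrostatic pressure for 1 hour and cultured for 24 hours more, with 4 libraries in each group. No group carried an engineered allele or a drug. Hip caps were kept in DMEM with GlutaMAX and metatarsals in αMEM with albumin, β-glycerophosphate and ascorbate, so that tissue, age and medium cannot be told apart. The sex of the embryos is not given, and the study lists Xist among the genes lowest in hip caps. Sex may thus differ between the tissues too and cannot be told apart from them. Whether the bones of a metatarsal sample came from a single embryo is not given, and p-values over those samples measure the spread between pools.

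Levels are given as normalised CPM (counts of a library scaled to the same total for all libraries, with TMM factors), and library totals ran from 4185557 to 25104484 counts. Hip cap control 4 and hip cap 50 MPa replicate 2 were left out of the fit because the authors had excluded them, which left 22 libraries, namely 3 hip cap controls, 3 hip cap 50 MPa libraries and 4 in each other group. The sequencing runs were shared unevenly. Run 1 held all 3 hip cap controls of the fit, the hip cap 50 MPa libraries, metatarsal control 1 and metatarsal 50 MPa replicate 4, and run 2 held the others. Hip cap control 3, the hip cap 50 MPa libraries and metatarsal 50 MPa replicate 4 had unstranded libraries. A difference was called at an adjusted p of at most 0.05 in edgeR's quasi-likelihood test over 21283 genes, with sequencing run and library type as terms. The tissue labels were checked on markers. All 11 cartilage markers (Col2a1, Acan and others) were higher in hip caps at each pressure, and their summed level was 21080 to 75096 normalised CPM in hip caps of the fit and 1654 to 4365 in metatarsals, so that cartilage markers were present in both. The excluded hip cap control 4 stood apart from the other hip cap controls, with cartilage markers at 9116 normalised CPM.

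Chad had the largest excess in hip caps of any member. In the 3 hip cap controls of the fit it stood at 1647, 1218 and 1562 normalised CPM, and in the 4 metatarsal controls at 5.93, 6.30, 19.8 and 4.86. Every hip cap library of the fit lay far above every metatarsal library, and the excluded hip cap control 4, at 495, did so as well. The log2 fold change was 7.15 (SE 0.66, adjusted p = 2.46e-07), which is 142-fold. Fitted values between the tissues at 0 MPa are not plain averages of the controls. Metatarsal control 1, of run 1 and with the lowest total (4185557 counts), carried 0.64 of the metatarsal control weight. Through the batch terms metatarsal 50 MPa replicate 4 also entered, with a weight of -0.36. Under pressure the gap stayed in the same range, at 7.70 (SE 0.46) at 5 MPa and 6.45 (SE 0.64) at 50 MPa. With 31 to 346 counts per metatarsal library, Chad was low but measurable there.

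Prelp, whose protein links collagen to heparan sulfate of basement membranes, and Chadl, a cartilage protein that binds collagen, came next. Prelp stood at 819, 627 and 666 normalised CPM in hip cap controls and at 16.4, 15.9, 38.8 and 13.6 in metatarsal controls. Its log2 fold change was 5.01 (SE 0.58, adjusted p = 3.56e-06). Chadl stood at 231, 142 and 349 against 9.94, 8.44, 20.7 and 11.9, a log2 fold change of 4.18 (SE 0.40, adjusted p = 2.24e-07). Metatarsal control 3 was the highest metatarsal control for all of Chad, Prelp and Chadl, and neither gene overlapped between the tissues. Both remained called at 5 MPa, at 5.20 for Prelp and 3.72 for Chadl, and at 50 MPa, at 4.08 and 2.92.

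Dcn and Fmod showed intermediate differences. Dcn, the decorin gene, averaged 1268 ± 273 normalised CPM over the hip cap libraries of the fit (SD, n = 10) and 135 ± 32.0 over the metatarsals (SD, n = 12), and in controls the log2 fold change was 3.45 (SE 0.35, adjusted p = 2.28e-07). Fmod, whose protein steers fibril assembly and cross-linking, averaged 363 ± 105 and 65.8 ± 18.5, with a log2 fold change of 2.88 (SE 0.40, adjusted p = 1.89e-05). Epyc, a gene known from epiphyseal cartilage, stood at 30.9, 107 and 46.7 normalised CPM in hip cap controls and at 9.37, 3.52, 11.9 and 2.93 in metatarsal controls. Its log2 fold change of 2.95 (SE 0.80, adjusted p = 0.0118) had the widest error of the 10. The Epyc call was lost without hip cap control 3 (adjusted p = 0.0734), metatarsal control 1 (0.153) or metatarsal 50 MPa replicate 4 (0.0737).

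Bgn differed least among the controls. Biglycan counts were high in both tissues, at 977, 954 and 994 normalised CPM in hip cap controls and 527, 701, 739 and 665 in metatarsal controls, without overlap. The log2 fold change of 0.70 (SE 0.21, adjusted p = 0.014) corresponds to 1.63-fold. It was 0.41 (adjusted p = 0.483) without metatarsal control 1, the library with the lowest Bgn of its group. The direction for Bgn also depended on the scaling: with library sizes alone, where the median of all genes moved from -0.08 to -0.97, Bgn came out at -0.21 at 0 MPa, still above that median.

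Aspn showed the opposite pattern, with the largest size of all members among the controls, though Chad exceeded it at 5 and 50 MPa. Asporin binds collagen and TGF-β, and its gene is known from perichondrium, periosteum and osteoarthritic cartilage. It stood at 334, 226, 214 and 154.5 normalised CPM in metatarsal controls and at 2.17, 2.22 and 0.666 in hip cap controls, and no hip cap library of any pressure exceeded 9.95 normalised CPM, the level of the excluded control 4. The log2 fold change was -7.39 (SE 0.44, adjusted p = 6.89e-10), a 168-fold difference. It was -6.86 (SE 0.34) at 5 MPa and -5.85 (SE 0.41) at 50 MPa. The hip cap values rest on 2 to 141 counts per library, and the metatarsal values on 1747 to 7543.

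Ogn and Lum were also lower in hip caps, by less. Ogn, whose product osteoglycin (mimecan) is known from bone and connective tissue, stood at 259, 145, 144 and 116.5 normalised CPM in metatarsal controls. The hip cap controls stood at 15.5, 98.0 and 11.1, so that control 2 lay far above the other two. The log2 fold change was -2.44 (SE 0.47, adjusted p = 0.000701), then -1.43 (SE 0.34, adjusted p = 0.0028) at 5 MPa and -1.28 (SE 0.47, adjusted p = 0.0663, not called) at 50 MPa. Lum, a keratan sulfate proteoglycan known from cornea and from many collagenous tissues, stood at 116, 101, 120.5 and 82.5 in metatarsal controls and at 36.6, 96.9 and 32.2 in hip cap controls. Its groups overlapped at hip cap control 2, and the log2 fold change of -1.19 (SE 0.33, adjusted p = 0.0104) lost its call without hip cap control 3 (-0.78, adjusted p = 0.158) or metatarsal 50 MPa replicate 4 (-0.78, adjusted p = 0.159). At 5 MPa the difference was -0.46, with a 95% interval from -0.95 to 0.03 (adjusted p = 0.131), and at 50 MPa it was -1.06 (SE 0.33, adjusted p = 0.0271).

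**Figure D1:**
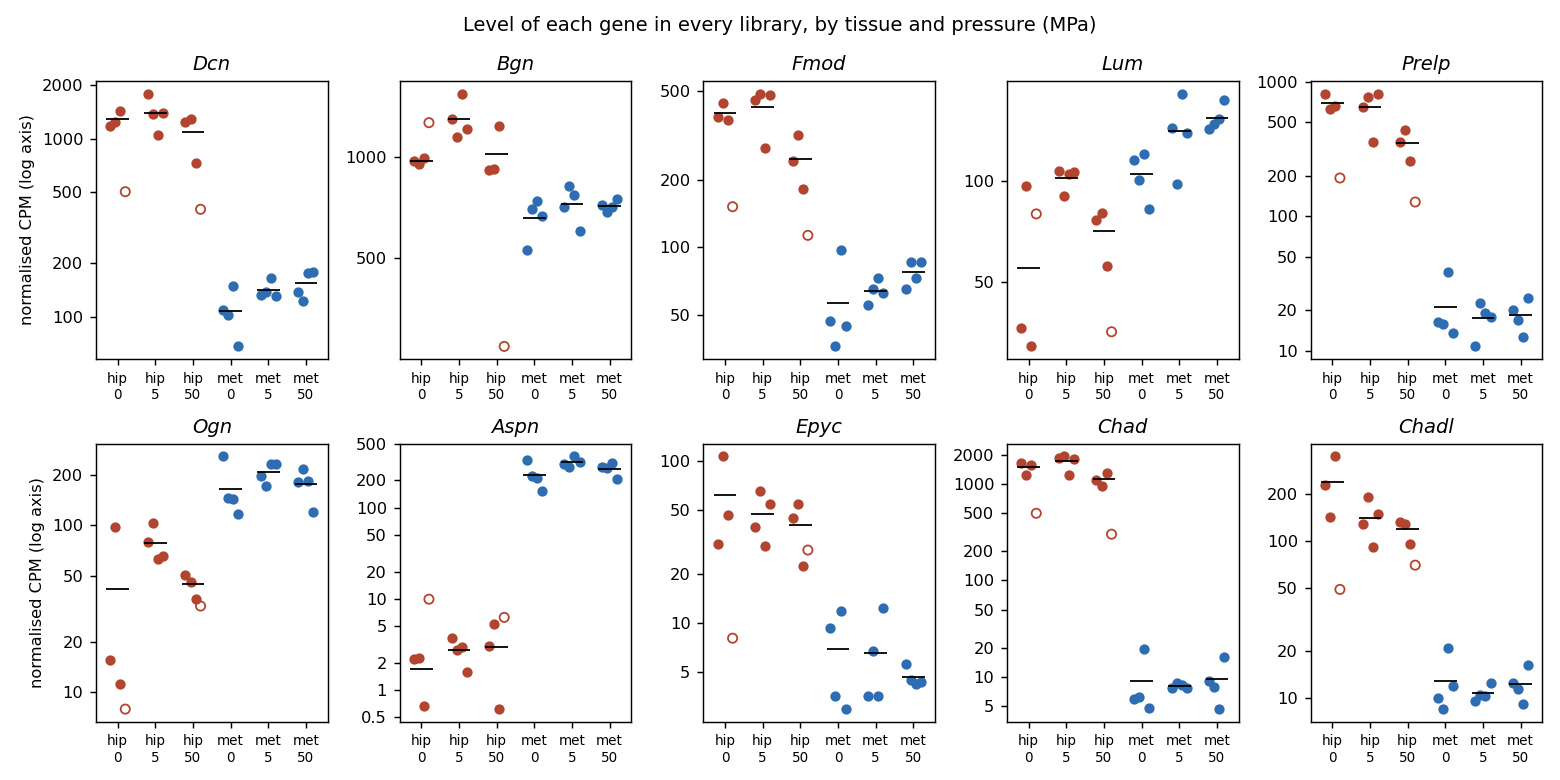
Normalised CPM (log axis) of the 10 members in each library, by group (HC, H5 and H50 for hip caps and MC, M5 and M50 for metatarsals at 0, 5 and 50 MPa). Filled points are libraries of the fit, open points the excluded hip cap control 4 and hip cap 50 MPa replicate 2, and black lines the means of the filled points. Among the filled points of the controls Chad drops from 1218 or more in hip caps to 19.8 or less in metatarsals, whereas Aspn climbs from 2.22 or less to 154.5 or more. The open control point lies between these bounds for both, at 495 and 9.95.

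Counted together, 7 members were called higher and 3 lower in hip cap controls, where 14.1% of all genes tested were called higher and 15.9% lower (29.9% in either direction). At 5 MPa 7 were called higher and 2 lower (18.8% and 19.1% of all genes, 37.9% together), and at 50 MPa 6 higher and 2 lower (10.2% and 9.57%, 19.7% together). The members not called by edgeR were Lum at 5 MPa, and Bgn (0.55, SE 0.22, adjusted p = 0.0794) and Ogn at 50 MPa. DESeq2 called both Bgn (0.53, adjusted p = 0.0235) and Ogn (-1.31, adjusted p = 0.0285) at 50 MPa. Over all libraries of the fit, 7 members were higher in every hip cap than in every metatarsal and 2, Ogn and Aspn, were lower in every hip cap (8.16% and 7.92% of all genes). The 50 MPa comparison leaned on metatarsal 50 MPa replicate 4, the run 1 library among the 50 MPa metatarsals, which carried 0.76 of the metatarsal weight. Without it 5 members were called, as Fmod (2.23, adjusted p = 0.080), Lum (-0.19, adjusted p = 0.928) and Epyc (3.11, adjusted p = 0.276) lost their calls.

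Within a single run and library type, 8 members were called at 0 MPa (hip cap controls 1 and 2 against metatarsal control 1), all but Bgn (0.86, adjusted p = 0.53) and Lum (-0.79, adjusted p = 0.349). At 5 MPa all 10 were called, Lum with -0.39 (adjusted p = 0.0479). At 50 MPa (3 hip cap libraries against metatarsal replicate 4) 6 were called, and Dcn (2.62, adjusted p = 0.0612), Fmod (1.57, adjusted p = 0.148), Lum (-1.26, adjusted p = 0.0807) and Bgn were not. The metatarsal arm at 0 and at 50 MPa is 1 library there, so that the spread came from other libraries (at 0 MPa from hip cap controls 1 and 2 alone) and the lone metatarsal was assumed to vary as they did. The direction of every member was the same in these comparisons as in the fit of all libraries. Between such settings the calls over all genes ranged widely, from 2278 to 9453 at 0 MPa, 4433 to 10130 at 5 MPa and 870 to 7495 at 50 MPa. The shares of all genes given for the fit of all libraries thus do not carry over to these counts of members.

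**Figure D2:**
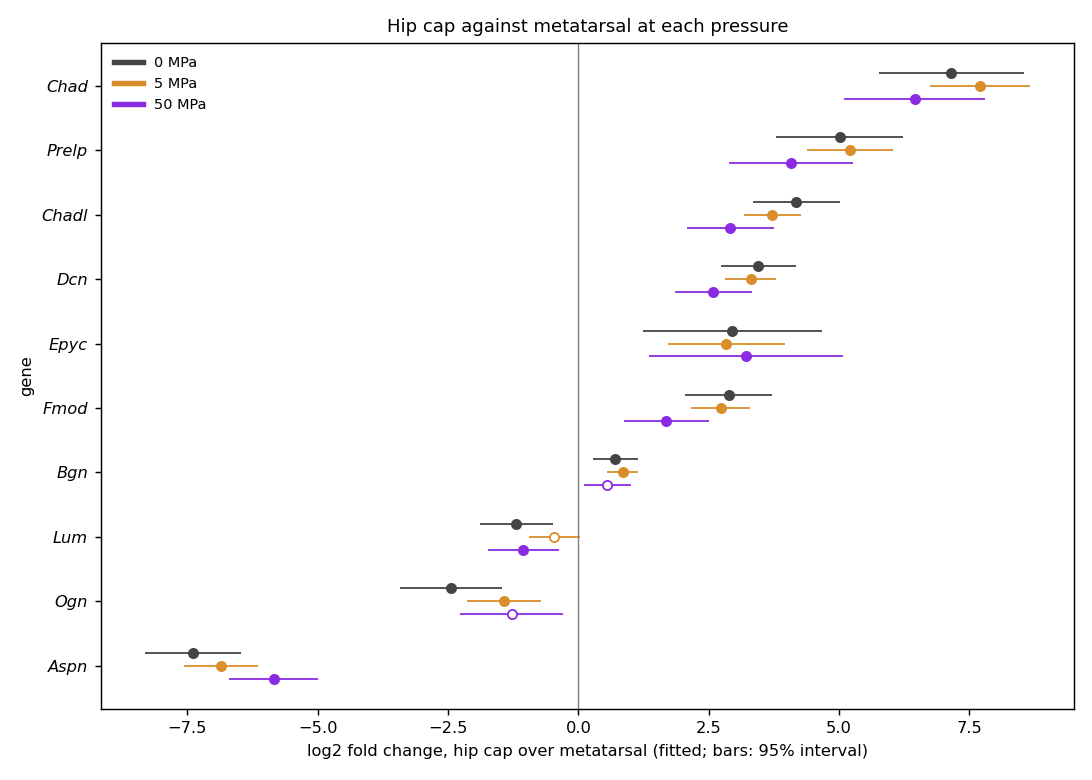
Log2 fold change of hip cap over metatarsal for each member at 0, 5 and 50 MPa, with 95% intervals; filled points passed an adjusted p of 0.05 and open points did not. Chad lies highest at 7.15, 7.70 and 6.45 and Aspn lowest at -7.39, -6.86 and -5.85, and the open points are Lum at 5 MPa and Bgn and Ogn at 50 MPa.

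Markers of other cell types moved with the tissues as well. Of 11 fibroblast, tendon and perichondrium markers, 8 were lower in hip cap controls (Postn by -4.43 and Tnmd by -3.77 on the log2 scale) and 1, Thbs4, was higher (2.89). Their summed level was 1381 to 2430 normalised CPM in hip cap controls and 5919 to 8705 in metatarsal controls. All 9 skeletal muscle markers were lower, at summed levels of 8.68 to 14.6 against 1022 to 2550. Of 7 osteoblast markers tested 6 were higher, at 1664 to 2941 against 93.6 to 254.7. Among all genes 14.1% were called higher and 15.9% lower. The part of these cells in the members' differences was not tested, and in such bulk samples fewer cells of a type and less RNA per cell cannot be told apart.

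Family genes lie side by side on 3 mouse chromosomes, and on 2 of these neighbours differed in opposite directions. On chromosome 10 the order is Dcn, Lum, Kera and Epyc. Dcn and Epyc, at its ends, were higher in hip caps, and Lum and Kera, between them, were lower. Kera (keratocan) averaged 27.9 ± 9.93 normalised CPM in metatarsal controls (SD, n = 4), and no hip cap control of the fit held more than 1 count of it. With 3 counts per library as the limit, Kera in hip caps was lower by at least 53.1-fold. On chromosome 13 the order is Ecm2, Aspn, Omd and Ogn. Ecm2 (2.98, SE 0.26, adjusted p = 3.83e-08) and Omd (4.72, SE 0.57, adjusted p = 6.46e-06), the osteoadherin gene known from bone, were higher in hip caps, while Aspn and Ogn, interleaved with them, were lower. On chromosome 1 Prelp and Fmod were both higher and Optc (0.50, adjusted p = 0.579) was not called. Bgn, Chad and Chadl stand apart from the others, on chromosomes X, 11 and 15.

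The directions of the interleaved pairs held at every pressure. Ecm2 was at 2.78 and Omd at 4.66 at 5 MPa, and at 2.22 and 5.19 at 50 MPa, all called, where Aspn was at -6.86 and -5.85 and Ogn at -1.43 and, without a call, -1.28. In normalised CPM, Omd stood between 133 and 647 in hip cap controls and between 8.63 and 15.3 in metatarsal controls, and Ecm2 between 98.9 and 173 and between 15.6 and 19.3. Kera was at 0 counts in all hip cap libraries at 5 MPa, at least 298-fold lower than in metatarsals. At 50 MPa it was at 5 counts or fewer in the libraries of the fit and at 6 in the excluded replicate 2.

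**Figure D3:**
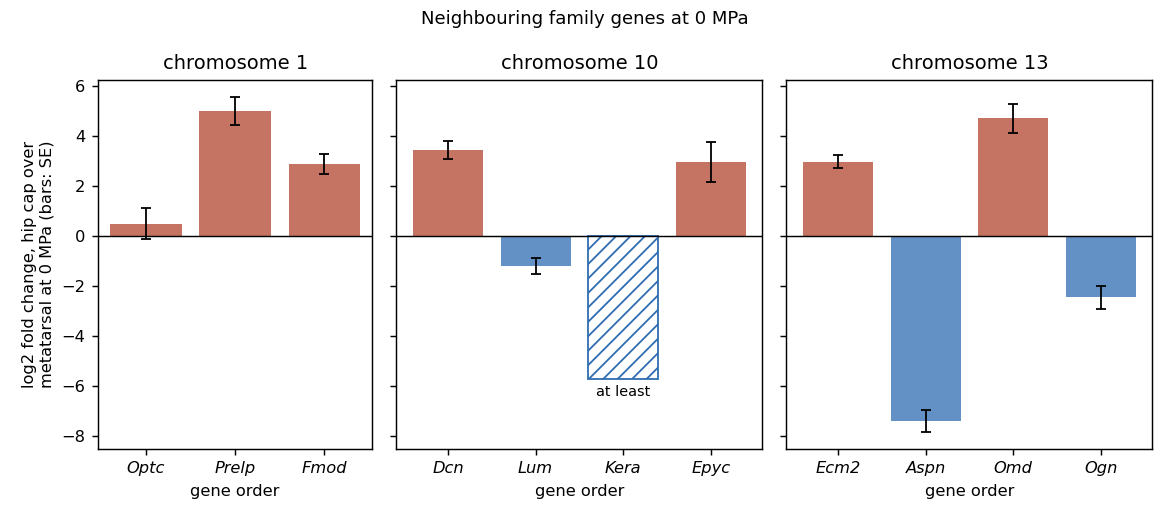
Log2 fold change of hip cap over metatarsal controls (bars, with SE) for family genes in their order along chromosomes 1, 10 and 13; distances are not to scale. Kera is hatched because its bar is a bound (at least 53.1-fold lower). Neighbours alternate in direction on chromosome 13 (2.98, -7.39, 4.72 and -2.44), and on chromosome 10 the 2 outer genes are higher and the 2 inner ones lower.

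The sequences just before the start sites of the chromosome 13 neighbours are shown because these genes lie next to each other and differ in opposite directions, and that of Chad because it has the largest excess in hip caps. Each line gives the 250 bases before the start, 5′ to 3′, from RefSeq on GRCm38.p6, with capitals for matches to 4 short motifs on either strand: TATAAA (the core promoter box), AACAAT (of the SOX type), GGGCGG (the box of Sp1) and TGTGGT (of the RUNX type).
Ecm2 (chr13:49504560-49504809, plus strand): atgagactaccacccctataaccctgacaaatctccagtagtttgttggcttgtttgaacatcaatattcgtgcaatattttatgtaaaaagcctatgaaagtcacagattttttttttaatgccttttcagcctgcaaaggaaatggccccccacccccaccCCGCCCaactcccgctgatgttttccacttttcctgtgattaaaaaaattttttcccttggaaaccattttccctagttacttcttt
Aspn (chr13:49544193-49544442, plus strand): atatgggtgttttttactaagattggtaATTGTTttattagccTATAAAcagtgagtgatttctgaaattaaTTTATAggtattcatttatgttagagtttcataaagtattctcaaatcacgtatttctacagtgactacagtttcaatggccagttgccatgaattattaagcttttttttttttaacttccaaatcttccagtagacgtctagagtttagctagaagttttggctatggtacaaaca
Omd (chr13:49582212-49582461, plus strand): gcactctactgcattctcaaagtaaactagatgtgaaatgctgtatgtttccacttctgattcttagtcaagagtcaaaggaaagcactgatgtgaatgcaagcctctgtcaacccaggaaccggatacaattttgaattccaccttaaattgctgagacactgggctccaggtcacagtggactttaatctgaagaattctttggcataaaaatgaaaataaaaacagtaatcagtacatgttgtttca
Ogn (chr13:49607765-49608014, plus strand): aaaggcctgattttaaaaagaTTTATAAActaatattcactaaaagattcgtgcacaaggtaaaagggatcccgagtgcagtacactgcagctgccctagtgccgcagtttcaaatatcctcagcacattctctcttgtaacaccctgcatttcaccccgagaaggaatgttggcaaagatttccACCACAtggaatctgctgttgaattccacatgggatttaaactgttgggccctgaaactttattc
Chad (chr11:94564797-94565046, plus strand): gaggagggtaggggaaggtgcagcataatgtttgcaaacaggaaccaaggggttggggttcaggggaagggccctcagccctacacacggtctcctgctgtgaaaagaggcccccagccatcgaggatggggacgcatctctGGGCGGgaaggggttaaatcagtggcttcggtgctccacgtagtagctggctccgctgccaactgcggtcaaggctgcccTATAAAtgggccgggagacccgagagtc

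Chad held TATAAA, first base 28 bases before the start, and GGGCGG at 108 bases. Aspn held TATAAA at 207 bases and, on the other strand, at 178 bases, and AACAAT on the other strand at 222 bases. Ogn held TATAAA at 227 bases, overlapping a match on the other strand at 229, and TGTGGT on the other strand at 65 bases. Ecm2 held GGGCGG on the other strand at 87 bases, and Omd held none of the 4. Of 32851 promoters of the same length, TATAAA was present in 12.4%, AACAAT in 9.42%, GGGCGG in 32.7% and TGTGGT in 14.0%, so that single matches are common. The G and C content was 30.0% for Aspn, 38.4% for Omd, 40.0% for Ecm2, 42.0% for Ogn and 60.4% for Chad, and the median of all promoters was 52.4%. The table held a promoter for 8 of the 10 members, all but Dcn and Lum.

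To compare the members with each other, normalised CPM was divided by the length of the principal transcript in kilobases. The order of the genes, their shares and their ratios depend on this choice of length. All exons joined are much longer for Bgn (6099 bases against 2419), Dcn (5838 against 1758) and Chadl (5257 against 2548). For the other members both lengths are equal or nearly so. On this per-length scale hip cap controls were led by Chad (mean 878), Dcn (728), Bgn (403), Prelp (195) and Fmod (127), with Aspn last (0.724). Chad and Dcn overlapped in their ranges, as did Fmod and Chadl, and Epyc, Lum and Ogn overlapped in turn. Metatarsal controls were led by Bgn (272), then Aspn (99.6), Ogn (64.8), Dcn (61.3) and Lum (42.9), and Bgn lay apart from Aspn while the next 4 overlapped in turn. Chad (5.48), Chadl (5.00) and Prelp (5.85) overlapped there as well.

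As shares of the summed per-length level of the 10 members, Chad took 34.9% ± 3.99 (SD, n = 10) in hip caps and 0.818% ± 0.395 (SD, n = 12) in metatarsals. Dcn took 29.3% ± 4.43 and 11.7% ± 1.92, and Bgn 19.2% ± 4.47 and 45.0% ± 5.62. Aspn took 0.045% ± 0.029 and 18.0% ± 3.18, Ogn 0.897% ± 0.452 and 11.1% ± 2.60, and Lum 1.32% ± 0.456 and 8.35% ± 1.30. The ranges of these 6 members' shares did not overlap between the tissues in the libraries of the fit. In the excluded hip cap control 4, Bgn led with 41.3%, within the metatarsal range, ahead of Chad (23.2%) and Dcn (22.6%). Fmod kept similar shares of 4.65% ± 0.878 and 3.23% ± 0.771, although its level was higher in hip caps.

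Ratios within a library do not depend on its scaling. Bgn stood at 0.506 to 1.23 times the per-length level of Dcn in hip caps (median 0.583) and at 2.92 to 7.05 times in metatarsals (median 3.67). Lum, which shares its collagen site with fibromodulin, stood at 0.111 to 0.486 times Fmod in hip caps and 1.58 to 3.57 times in metatarsals. Prelp to Fmod, neighbours on chromosome 1, ran the other way, at 1.12 to 1.85 and 0.151 to 0.380. Chadl to Chad was 0.0457 to 0.147 in hip caps and 0.653 to 1.61 in metatarsals, and Aspn to Bgn 0.000520 to 0.00593 and 0.241 to 0.658. In each of these ratios every hip cap library of the fit lay outside the range of the metatarsals.

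**Figure D4:**
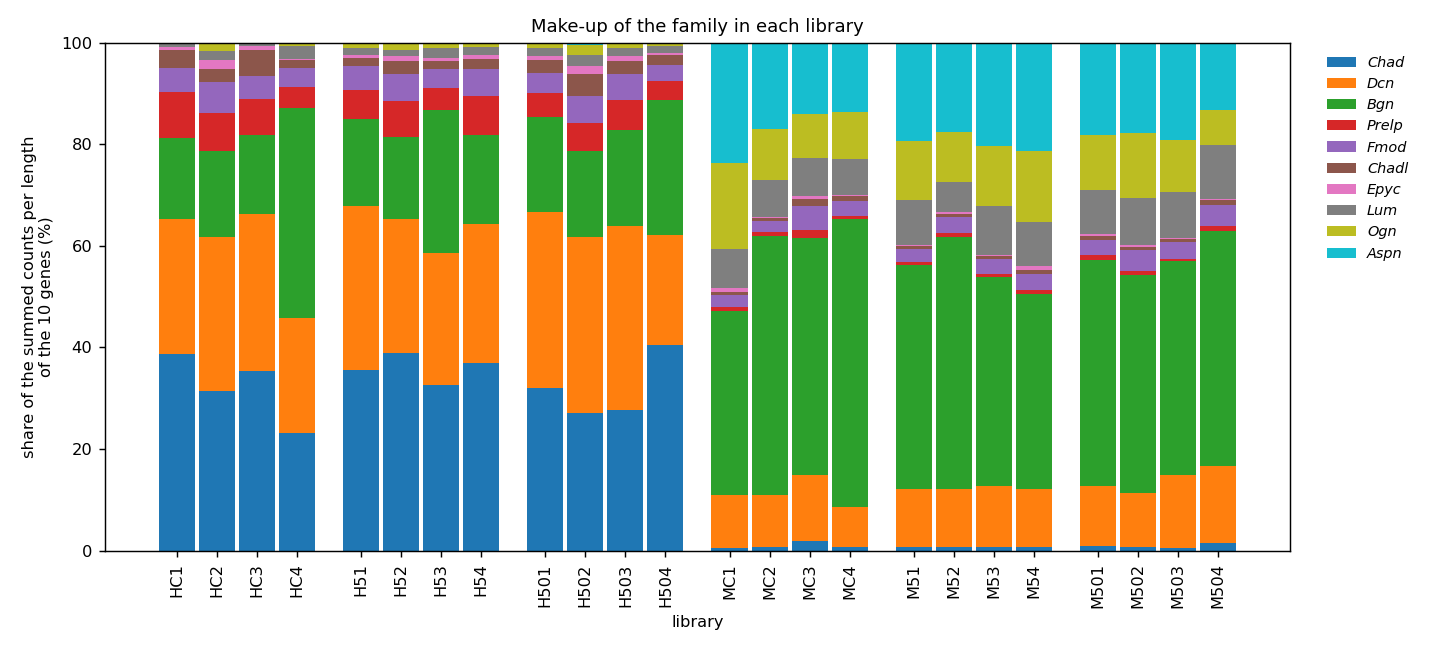
Share (%) of each member in the summed per-length level of the 10 members (length of the principal transcript), as stacked bars for all 24 libraries. Chad and Dcn fill most of the hip cap bars of the fit (means 34.9% and 29.3%), and Bgn and Aspn most of the metatarsal bars (45.0% and 18.0%). The bar of hip cap control 4, which is not in the fit, is led by Bgn (41.3%).

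Exposure of hip caps to 50 MPa gave 2 called members of 10, Aspn higher and Chadl lower, where 5.17% of all genes were called (3.32% higher and 1.86% lower). Chadl stood at 132, 129 and 96.7 normalised CPM at 50 MPa and at 231, 142 and 349 in controls. All 3 pressed libraries lay below all 3 controls, with control 2 only slightly above them. The log2 fold change was -1.57 (SE 0.34, 95% interval -2.28 to -0.86, adjusted p = 0.0195). The call was lost without batch terms (-1.01, adjusted p = 0.073) and with all 24 libraries (-1.42, adjusted p = 0.201). It was also lost with hip caps fitted alone (-1.53, adjusted p = 0.448). Exons of L3mbtl2 overlap 1023 of the 5257 exon bases of Chadl on the opposite strand, and reads from that stretch cannot be told apart in unstranded libraries. L3mbtl2 was at 10.6 ± 3.61 normalised CPM in controls and 10.1 ± 2.63 at 50 MPa (SD, n = 3 each).

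Aspn stood at 3.05, 5.26 and 0.618 normalised CPM at 50 MPa and at 2.17, 2.22 and 0.666 in controls, and these ranges overlap. The fitted log2 fold change of 2.14 (SE 0.53, 95% interval 1.03 to 3.24, adjusted p = 0.0295) compares values after the terms for run and library type. Without those terms it was 1.15 (adjusted p = 0.183), and with all 24 libraries 1.00 (adjusted p = 0.507). Hip caps fitted alone gave 2.28 (adjusted p = 0.481). Hip cap control 3, the unstranded control and the lowest for Aspn, carried 0.76 of the control weight in the fit of both tissues. Without control 3 no member was called at 50 MPa, with Aspn at 1.88 (adjusted p = 0.319) and Chadl at -1.65 (adjusted p = 0.325). Without replicate 3 at 50 MPa Aspn was at 1.47 (adjusted p = 0.131), and without metatarsal control 1 or metatarsal 50 MPa replicate 4 at 2.35 (adjusted p = 0.0761 and 0.0765). Without control 2, on the other hand, 4 members were called, with Ogn (2.24, adjusted p = 9.4e-05) and Lum (1.09, adjusted p = 0.00938) added. Without control 1 Ogn was added (1.61, adjusted p = 0.00907). Over all genes, leaving out a library moved the calls from 1 to 2472 (1101 in the fit of all 22 libraries).

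The other members at 50 MPa fell short of the threshold in edgeR. Prelp stood at 355, 441 and 258 normalised CPM against 819, 627 and 666 (log2 fold change -1.21, SE 0.49, adjusted p = 0.153), and Fmod at 243, 318 and 182 against 383, 440.4 and 369.8 (-0.75, SE 0.38, adjusted p = 0.251). For both, all 3 pressed libraries lay below all 3 controls. Ogn was at 1.79 (SE 0.56, adjusted p = 0.0668) and Lum at 0.85 (SE 0.38, adjusted p = 0.187). For both, controls 1 and 3 lay below every pressed library and control 2 above every one. DESeq2 called Ogn (1.81, adjusted p = 0.00429). Chad (-0.94, SE 0.53, adjusted p = 0.312), Dcn (-0.40, SE 0.32), Epyc (-0.15, SE 0.74) and Bgn (-0.07, SE 0.22) were not called. In all, 3 members (Fmod, Prelp and Chadl) were lower in every pressed library, where 7.56% of all genes were. Hip cap 50 MPa replicate 2, excluded from the fit, had the lowest level of its group for Dcn, Bgn, Fmod, Lum, Prelp, Ogn, Chad and Chadl and the highest for Aspn (6.28).

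Cartilage markers moved alongside. All 11 had a negative log2 fold change at 50 MPa and 2, Sox9 (-1.23) and Comp (-1.35), were called, with summed levels of 45719 to 75096 normalised CPM in controls and 31356 to 35790 at 50 MPa. Of the fibroblast markers, Twist2 (2.48) was called, at summed levels of 1381 to 2430 and 1986 to 2768. Muscle markers summed to 8.68 to 14.6 in controls and 28.5 to 45.4 at 50 MPa, and Ttn was called (1.95). The part of these shifts in the Aspn and Chadl values was not tested.

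At 5 MPa no member was called in hip caps by edgeR, and 4 genes were called in all (0.0188%, with 3145 genes at an unadjusted p under 0.05). Lum stood at 107, 90.7, 105 and 106 normalised CPM at 5 MPa against 36.6, 96.9 and 32.2 in controls (1.29, SE 0.38, adjusted p = 0.161). Ogn stood at 79.8, 103, 63.1 and 65.8 against 15.5, 98.0 and 11.1 (1.70, SE 0.54, adjusted p = 0.181), and Aspn was at 1.24 (SE 0.50, adjusted p = 0.265). These 3 had an unadjusted p under 0.05. In both Lum and Ogn, controls 1 and 3 lay below all pressed libraries and control 2 within them, and without control 2 both were called (1.79 and 2.68, adjusted p = 0.000971 and 8.1e-05). DESeq2 called the same 2 members with all 3 controls (Lum 1.31, adjusted p = 0.031, and Ogn 1.73, adjusted p = 0.034). Over all genes, edgeR called 1 to 1298 when single libraries were left out, and the study's own DESeq2 analysis called far more than 4. The share of 0.0188% thus does not apply to these calls. The other members lay between -0.81 (Chadl, SE 0.40) and 0.35 (Chad, SE 0.59). Among these, Bgn (0.22, SE 0.23, adjusted p = 0.682) was higher in every pressed library than in every control of the fit. It stood at 1300, 1147, 1548 and 1215 normalised CPM against 977, 954 and 994. The excluded control 4, at 1268, lay within the pressed libraries, and the share of all genes without overlap is not given here.

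All hip cap libraries at 5 MPa were in run 2 and all hip cap controls of the fit in run 1, so the run enters this comparison through the metatarsals. The hip cap control of run 2 was control 4, which is not in the fit. Set against it within run 2, 8 members were called at 5 MPa, as were 10219 genes in all. Dcn (1.59), Fmod (1.60), Prelp (1.87), Ogn (3.42), Epyc (2.67), Chad (1.90) and Chadl (1.63) were higher and Aspn was lower (-1.75, adjusted p = 0.000235). Prelp, Epyc, Chadl and Aspn were thereby opposite in sign to their values with the controls of the fit (-0.09, -0.04, -0.81 and 1.24). Control 4 also stood apart in its markers, with cartilage markers at 9116 normalised CPM (45719 to 75096 in the other controls), osteoclast markers at 4780 (328 to 529) and fibroblast, tendon and perichondrium markers at 6799 (1381 to 2430), and their part in these values was not tested. That comparison rests on 1 control library and was added after seeing the data.

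**Figure D5:**
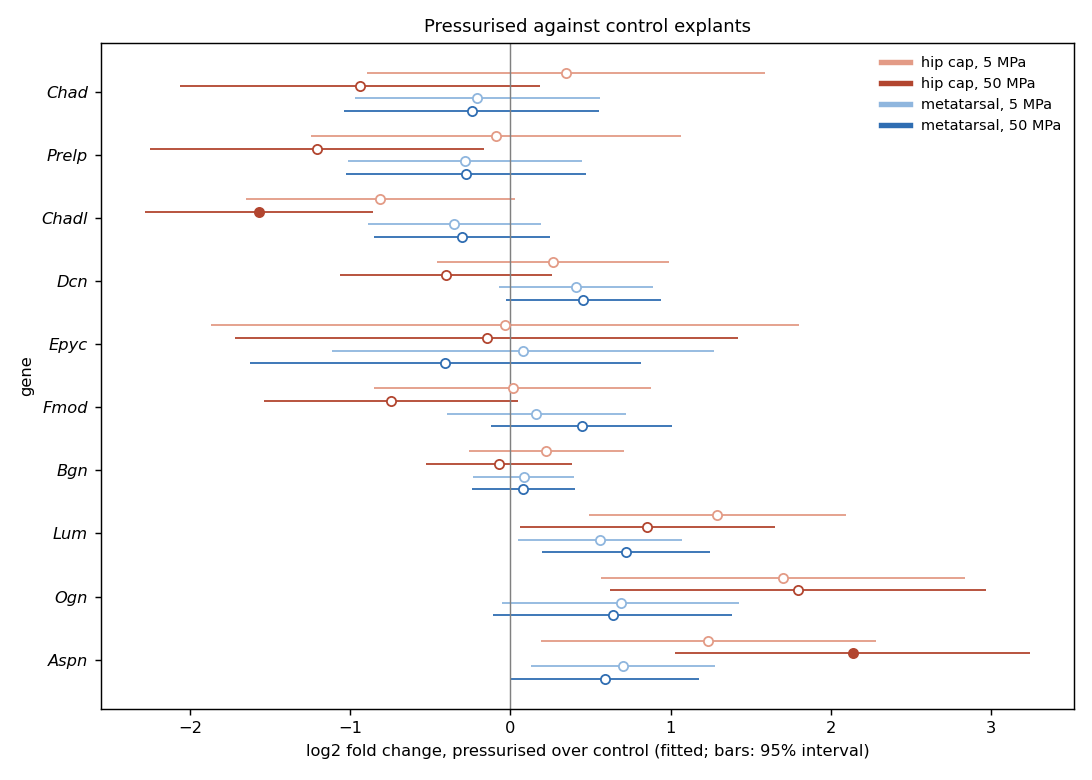
Log2 fold change of each member at 5 and 50 MPa against the control of the same tissue, with 95% intervals; filled points passed an adjusted p of 0.05. Only Aspn (2.14) and Chadl (-1.57) in hip caps at 50 MPa are filled, and the metatarsal intervals are narrower than those of the hip caps for most members.

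In metatarsals no member was called at either pressure, and edgeR called 0 genes in all (0% at both), with 689 genes at 5 MPa and 828 at 50 MPa at an unadjusted p under 0.05. The most any other setting called was 14 and 9 genes. Lum stood at 143, 148, 154 and 174 normalised CPM at 50 MPa, all above the controls at 116, 101, 120.5 and 82.5 (0.72, SE 0.25, adjusted p = 1), where 2.38% of genes did so. At 5 MPa it stood at 144, 98.1, 182 and 139 and overlapped the controls (0.56, SE 0.25). Aspn was at 0.70 (SE 0.27) at 5 MPa and 0.59 (SE 0.28) at 50 MPa, and these were the 2 members with an unadjusted p under 0.05 at each pressure. The 95% intervals bounded the size of any change: for Bgn they ran from -0.23 to 0.40 at 5 MPa and from -0.24 to 0.40 at 50 MPa, for Dcn from -0.07 to 0.89 and -0.03 to 0.94, and for the sparse Epyc from -1.11 to 1.27 and -1.63 to 0.81.

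The difference between the tissues in their response was tested directly, as the hip cap change minus the metatarsal change. No member was called by edgeR at 5 MPa (0.0188% of genes were) or at 50 MPa (0.132%). At 50 MPa 3900 of the 21283 genes had an unadjusted p under 0.05. Among them were 4 members, namely Aspn (1.54, SE 0.54, adjusted p = 0.137), Chadl (-1.27, SE 0.40, adjusted p = 0.109), Fmod (-1.19, SE 0.42, adjusted p = 0.142) and Dcn (-0.86, SE 0.35, adjusted p = 0.202). DESeq2 called Aspn (1.59, adjusted p = 0.0274) and Chadl (-1.25, adjusted p = 0.0378) at 50 MPa. At 5 MPa Ogn (1.01, SE 0.58) and Lum (0.73, SE 0.41) were furthest from 0. In edgeR, Aspn was called at 50 MPa without hip cap 50 MPa replicate 4 (1.83, adjusted p = 0.0245). Without hip cap control 2, Chadl (-1.37, adjusted p = 0.0435) and Ogn (1.86, adjusted p = 0.00175) were called at 50 MPa. At 5 MPa the same removal called Ogn (2.12, adjusted p = 0.00268) and Lum (1.30, adjusted p = 0.0233). Over all genes, leaving out a library moved the calls from 0 to 595 at 5 MPa and from 0 to 1623 at 50 MPa. Whether the calls of Aspn and Chadl are particular to hip caps thus depended on the tool and on single libraries.

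Members varied to different degrees within a tissue. Over the 10 hip cap libraries of the fit the highest value was 9.28 times the lowest for Ogn, 8.51 times for Aspn and 4.76 times for Epyc, but 1.70 times for Bgn and 2.03 times for Chad. Over the 12 metatarsal libraries it was 4.22 times for both Epyc and Chad and 1.55 times for Bgn, so Bgn was the steadiest in both. As a description over libraries that share depth and scaling, log2 levels of Lum and Ogn went together in hip caps (Pearson r = 0.948, 10 libraries), as did Fmod and Prelp (0.940), while Chadl ran against Lum (-0.678) and Ogn (-0.611). In metatarsals Ogn went with Aspn (0.920, 12 libraries), Prelp with Chad (0.852) and Chad with Chadl (0.836).

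Among 12994 named genes with at least 1 normalised CPM on average in each tissue, those most like each member across the 22 libraries, after subtracting each tissue's mean, were found by Pearson r of log2 levels. Chadl was most like Comp (0.930) and Col11a2 (0.909), which encode cartilage matrix proteins. Prelp was most like Papss2 (0.856), an enzyme that makes the sulfate donor for sugar chains, Fmod like Rtl3 (0.831) and Ucma (0.807), and Chad like Wif1 (0.764), which encodes a Wnt inhibitor, and Prelp (0.747). Dcn was most like Fmod (0.758), and Bgn like Creb3l1 (0.885), which encodes a regulator of collagen secretion. Ogn was most like Gtf2h2 (0.958), Lum like Cox16 (0.910), Aspn like Riok3 (0.890) and Epyc like Edil3 (0.751). The nearest gene depended on the measure. By Spearman correlation it stayed the same for Lum, Prelp and Chad alone, and became Fgfrl1 (0.892) for Chadl and Serpina3n (0.809) for Dcn. With each group's mean subtracted instead, Pearson r kept the nearest gene for Chadl alone (Comp, 0.920).

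Other small leucine-rich genes were split by tissue too. Of 8 listed, 3 were higher in hip caps at each pressure, namely Omd, Ecm2 and Podnl1 (3.40 in controls), and 3 were lower, namely Kera, Podn (-2.80) and Tsku (-2.15). Optc and Nyx were not called. Of all genes, 14.1% were called higher and 15.9% lower in hip cap controls. None of the 8 was called under pressure in either tissue. Tsku, which encodes the signalling modulator tsukushi, had log2 fold changes of 1.17 (SE 0.30, adjusted p = 0.14) and 0.90 (SE 0.29, adjusted p = 0.0754) in hip caps at 5 and 50 MPa.

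Of 14 collagens and growth factors that the family is known to bind, 5 were higher and 6 lower in hip cap controls (14.1% and 15.9% of all genes). Col2a1 (4.77) and Col11a1 (3.11), of cartilage fibrils, Col6a1 (0.92), Col6a2 (0.93) and Tgfb1 (2.65) were higher. Col14a1 (-5.74), Col3a1 (-3.18), Col1a1 (-2.07), Tgfb2 (-1.17), Col5a1 (-0.96) and Tgfb3 (-0.78) were lower. Col2a1, the main collagen of cartilage, thus differed in the direction of Chad, and Col1a1 and Col3a1, of fibrous tissues, in that of Aspn. At 5 MPa 5 were higher and 5 lower (18.8% and 19.1% of all genes) and at 50 MPa 3 and 5 (10.2% and 9.57%). Under 50 MPa in hip caps 1 was called, Col6a2 (-1.07), where 5.17% of all genes were.

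Of 13 enzymes that build dermatan and keratan sulfate chains, 2 were higher and 1 lower in hip cap controls (14.1% and 15.9% of all genes). Xylt1 (3.39), which starts the chain on the protein core, and B4galt7 (1.19), which adds the next sugar, were higher. The epimerase gene Dsel (-0.99) was lower. At 5 MPa 4 were higher and 3 lower (18.8% and 19.1% of all genes), with B3gnt7 (-2.50), of keratan sulfate, lowest. At 50 MPa 2 were higher and 2 lower (10.2% and 9.57%). None was called under pressure in either tissue.

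Some members share sequence with other genes. In the GENCODE annotation 40.0% of the 31-base words of Epyc transcripts also occur in Gm10754, 17.5% of those of Chadl in L3mbtl2, and 325 of the 3612 words of Prelp in Gm15851, all on the opposite strand, and no other member exceeded 0.223%. Gm10754 stayed at or under 0.485 normalised CPM, and Gm15851 reached 1.37 in the unstranded hip cap 50 MPa libraries. The Epyc and Prelp levels are therefore far above those of their partners. For Chadl this held in hip caps alone: in metatarsal controls L3mbtl2 averaged 7.10 normalised CPM, close to Chadl at 8.44 to 20.7.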

How the data were processed

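Total RNA depleted of ribosomal RNA was sequenced in 24 libraries of 6 groups. The authors take low RNA integrity values as a sign of some degradation, so long transcripts may lose counts. The authors trimmed reads with Trim Galore 0.6.5, assigned them to transcripts with kallisto, summed them per gene with tximport and deposited the estimated counts of 52178 genes without normalization. GRCm39 is named in the submitters' notes, and the annotation release and kallisto version are not given in the sources used here. The estimated counts were rounded. GENCODE M21 and RefSeq (GRCm38) served for names, lengths, shared sequence and promoters only, and 3333 genes stayed without a name. A single gene took up to 41.06% of a library.

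Counts were analysed with edgeR 4.0.16 (filterByExpr over the 6 groups, TMM, robust quasi-likelihood fit, two-sided tests) in R 4.3.3, with group, sequencing run and library type as terms, after the study's own design. Adjustment followed Benjamini and Hochberg over the 21283 genes tested, the threshold was 0.05, and a prior count of 2 entered log2 CPM. Each standard error was the absolute log2 fold change over the root of F. Library type was taken from the labels (6 libraries were unstranded). Run was taken from colours beside a published clustering picture, which puts 9 libraries in run 1. The sequencing kits named in the study's methods cover other numbers of libraries than this split, so run assignments, and the values adjusted for run, could be wrong. Median dispersion was 0.101 in hip caps and 0.030 in metatarsals, and the shared fit used 0.0507. Intervals of the shared fit may thus be too narrow for hip caps and too wide for metatarsals. A floor of 3 counts per library set lower bounds. Intervals and floors cover no more than the spread or counting error named.

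The members and gene lists were chosen with earlier results of these data known. Named genes are the members, all genes of 3 lists (other family genes, binding partners, chain enzymes), cell type markers, and the 2 genes most like each member. Other marker lists (osteoclast, erythroid, endothelial, macrophage and neutrophil) are given among the other observations. Alternatives were DESeq2 1.42.0, limma 3.58.1 (voom), other scalings, filters, batch terms and libraries, a replicate block and leaving out each library. The fit was tested on simulated data with known changes.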

Additional observations from a re-analysis of the deposited data

Results flagged for a closer look

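In each of the 60 combinations of a member and a group of 4 libraries, the library at either end was compared with the rest, and 7 stood apart by Dixon's criterion, where chance gives about 1 in 20 such groups. All 24 libraries entered, the excluded ones too. Hip cap control 4, excluded from the fit, was the highest hip cap control for Bgn (1268 normalised CPM, against 954 to 994 in the others) and for Aspn (9.95, against 0.666 to 2.22). Hip cap control 2 was the highest for Ogn (98.0, against 7.91 to 15.5), and it is the library whose removal added Ogn and Lum to the calls in hip caps. Metatarsal control 3 was the highest for Prelp (38.8, against 13.6 to 16.4) and Chad (19.8, against 4.86 to 6.30), and these values lie below every hip cap library. At 5 MPa in hip caps, replicate 3 was the lowest for Fmod (276, against 456 to 485) and replicate 2 for Lum (90.7, against 105 to 107). Replicate 3 also had cartilage markers at a summed 21080 normalised CPM (34605 to 50555 in the other 3), fibroblast, tendon and perichondrium markers at 9489 (1399 to 3130) and macrophage and neutrophil markers at 798 (114 to 218), and their part in its Fmod value was not tested.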

How the results depend on the processing

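Between the tissues, the settings other than leaving out a library gave 7 to 10 called members at 0 MPa (10 as reported), 8 to 10 at 5 MPa (9) and 6 to 10 at 50 MPa (8). Leaving out each library gave 8 to 10, 9 to 10 and 5 to 9, with the 5 without metatarsal 50 MPa replicate 4. With library sizes alone, which shifted the median of all genes to -0.97, -0.70 and -0.90 at 0, 5 and 50 MPa, Bgn reversed to -0.21 at 0 MPa and -0.44 at 50 MPa. In hip caps at 5 MPa, 2 members were called by DESeq2, 1 without batch terms and 8 with control 4 as the control of run 2, and Aspn reversed with all 24 libraries (-0.65) and with control 4 (-1.75, with 10219 genes called in all), as did Prelp (1.87), Epyc (2.67) and Chadl (1.63) with control 4. Leaving out each library gave 0 to 2. In hip caps at 50 MPa, 0 members were called with library sizes alone, all 24 libraries, no batch terms, the run term alone, each tissue fitted alone, or a single run and library type (3 libraries against control 3), 1 without the filter, with the library type term alone or with voom, and 0 to 4 when leaving out each library. The difference between tissues gave 7 members at 5 MPa with control 4, 2 at 50 MPa with DESeq2, and 0 to 2 at each pressure when leaving out each library. In metatarsals every setting left 0 members called. The cause of these moves was not tested. Over all genes the settings moved the hip cap call at 50 MPa from 0 to 2455 (1101 as reported) and the tissue call at 0 MPa from 2278 to 9453 (6372 as reported). Replicate numbers did not pair the libraries: residuals of libraries with the same number correlated at -0.13 to 0.16. With the replicate block Ogn was called in hip caps at 50 MPa (2.02, adjusted p = 0.0451), 3 members in all, and no other call changed. No value within a run was possible for hip caps at 5 MPa without control 4. Depth limits Aspn in hip caps, at 2 to 141 counts per library.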

Other observations

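Other cell types differed between the explants as well. Of all genes, 14.1%, 18.8% and 10.2% were called higher in hip caps at 0, 5 and 50 MPa, and 15.9%, 19.1% and 9.57% lower. Osteoclast markers (Acp5, Ctsk and others) summed to 328 to 529 normalised CPM in hip cap controls and 36.7 to 66.7 in metatarsal controls, and 3 of 6 were called higher in hip caps at 0 MPa, 6 at 5 MPa and 5 at 50 MPa. Macrophage and neutrophil markers summed to 108 to 332 and 51.5 to 77.2, and 0 of 7 tested were called at 0 MPa by edgeR (1 at an unadjusted p under 0.05), 6 at 5 MPa and 1 at 50 MPa, all higher in hip caps. Endothelial markers lay closer together, at 46.5 to 98.2 and 71.5 to 109, with 1 of 5 called lower at 0 MPa and none at 5 or 50 MPa. Erythroid markers were sparse, at 1.90 to 8.37 and 0.956 to 5.29, with 2 of 5 tested and 1 called, at 5 MPa.

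Within hip caps of the fit, osteoclast markers summed to 550 to 1720 normalised CPM at 50 MPa, above the controls (the excluded control 4 was at 4780 and the excluded 50 MPa replicate 2 below every control), and all 6 had a positive log2 fold change, but none was called (4 at an unadjusted p under 0.05). The study's hip caps were taken without the underlying bone, and osteoblast markers summed to 1664 to 2941 in controls and to 950.2 to 1304 at 50 MPa, with 1 of 7 called, Sp7 (-1.07).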
